A study of Mus musculus with 8 samples.

Results

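The 40 genes described here encode the antioxidant and glutathione enzymes of the cell together with the regulator NRF2. They were chosen by name, from the NRF2 pathway, the peroxidases, the thioredoxin system, the superoxide dismutases, the glutathione enzymes and the metallothioneins, and all 40 were found among the 54532 genes of the deposited count table. Of these, 39 passed the filter on low counts that left 16440 genes for testing, and Mt2 did not. The libraries were made from enamel organs of first molars of untreated wt C57BL/6 pups, at postnatal day 5 (P5, when ameloblasts secrete enamel matrix) and postnatal day 12 (P12, when the enamel matures). Each library was a pool of 5 pups, and n = 4 pools at each age, numbered 1, 3, 4 and 5 at P5 and 1 to 4 at P12. The total count was between 16574548 and 22013456 per library. The labels call the cells epithelially derived, but mesenchyme markers took between 4.03% and 6.09% of the counts in every library, so the pools also held RNA of other cells.

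NRF2, the product of Nfe2l2, is a transcription factor that is normally held in the cytoplasm and sent for degradation by KEAP1. Oxidants and electrophiles modify cysteines of KEAP1, NRF2 then enters the nucleus, and with small MAF proteins it binds antioxidant response elements near the genes of many of the enzymes below. Glutathione, a tripeptide thiol, is made in the steps catalysed by glutamate-cysteine ligase and glutathione synthetase. It is spent by glutathione peroxidases, which reduce peroxides, and by glutathione transferases, which attach it to electrophiles, while peroxiredoxins reduce peroxides with electrons from thioredoxin. Ameloblasts of the maturation stage move large amounts of ions and acid and take up degraded matrix protein.

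The antioxidant genes were mostly higher at P12. At an adjusted p-value under 0.05 (edgeR's quasi-likelihood test, Benjamini-Hochberg adjustment over all 16440 genes), 24 of the 39 tested genes were higher at P12, or 61.5%, and 5 were lower, or 12.8%. Over all genes tested, 57.2% were called, with 28.8% higher and 28.4% lower. The 5 lower genes were Gclm, Gstm5, Prdx4, Txnrd1 and Prdx2. The median log2 fold change (P12 over P5) of the 39 genes was 0.48, against 0.01 for all genes tested. Of the 24, 14 had a log2 fold change of at least 1, as did 11.3% of all genes, and of the 5 lower genes 2 were at -1 or below, as were 10.2% of all genes. In 21 genes every P12 library lay above every P5 library, which held for 26% of all genes, and in 5 every P12 library lay below, which held for 26.6%. The largest rises were in Gpx3, Mt1, Gsta4 and Gsto1, and these 4 made up 80% of the difference in the summed level. The normalized counts of the 40 genes summed to 36674 at the lowest and 40338 at the highest P5 library, against 63078 and 79317 for P12. A normalized count here is the read count relative to the library size as corrected by TMM in edgeR, times the mean corrected size of the 8 libraries. In pooled tissue a lower value can come from fewer cells of a type or from less RNA per cell, and the counts cannot separate them.

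**Figure D1:**
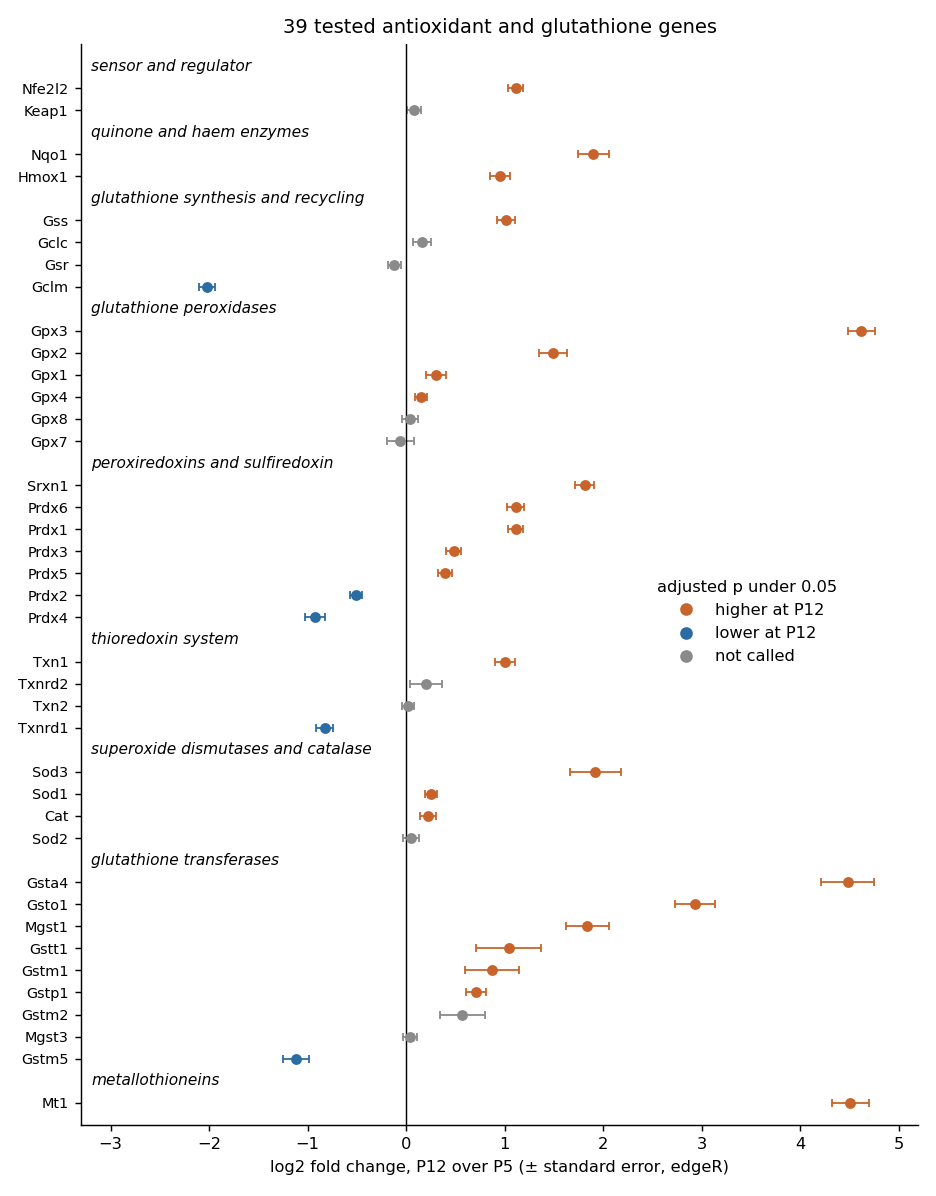
Log2 fold change of P12 over P5 (horizontal axis) for the 39 tested genes, by role, with the standard error of the edgeR fit as bars. Gpx3, Mt1 and Gsta4 lie beyond 4, the 5 genes lower at P12 lie left of 0 in 4 different roles, and Keap1, Gclc, Gsr, Gpx7, Gpx8, Txn2, Txnrd2, Sod2, Gstm2 and Mgst3 were not called.

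Nfe2l2 was about doubled at P12, whereas Keap1 was close to its P5 level. The normalized count of Nfe2l2 (chromosome 2, 75675513 to 75704641 on the minus strand of GRCm38) in P5 libraries 1, 3, 4 and 5 was 1117, 1029, 1097 and 954, and P12 libraries 1 to 4 had 2097, 2569, 2233 and 2123. The ages did not overlap, and the log2 fold change was 1.11 ± 0.08 (SE, n = 4 against 4, adjusted p = 6.1e-07 by edgeR's test). Keap1 was at 920, 1002, 1041 and 950 at P5 and at 1084, 1040, 1078 and 922 at P12. Its ages overlapped, with a log2 fold change of 0.08 ± 0.07 that was not called (adjusted p = 0.39, edgeR). Counts of Nfe2l2 per kilobase of gene were 1.33 ± 0.118 times those of Keap1 at P5 (SD, n = 4) and 2.71 ± 0.295 times at P12, a ratio taken within each library and so free of the scaling between libraries. About 10.9% of the exonic bases of Keap1 are shared with an antisense gene, and the counting is not stated to use strand.

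The partners and antagonists of NRF2 changed in both directions. Of 11 listed genes, all tested, 5 were higher (45.5%) and 2 lower (18.2%), against 28.8% and 28.4% of all genes tested. Maff, which encodes a small MAF partner, rose the most, from 32.2 ± 13 to 107 ± 23.7 normalized counts (SD, n = 4, log2 fold change 1.73 ± 0.29 SE). The small MAF gene Mafk also rose (1.02), while Mafg, another of them, fell from 3390 ± 109 to 1992 ± 143 (-0.77). Sqstm1, whose product p62 can draw KEAP1 away from NRF2, rose by 0.73 on the log2 scale. Bach1, a repressor at the same DNA elements, had a log2 fold change of 0.08 ± 0.20 (SE) and was not called. It was at 1007 to 1363 normalized counts at P5, and at 927, 1056, 1146 and 1960 in P12 libraries 1 to 4. Cul3, the ligase scaffold that KEAP1 serves, was not called either, at -0.03.

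Among the known NRF2 targets, Nqo1 and Hmox1 were both higher at P12. Other genes of the NRF2 pathway, described below, were lower (Gclm at -2.02 and Txnrd1 at -0.83) or not called (Gclc). Nqo1, an enzyme that reduces quinones, was at 81.0, 72.7, 80.4 and 52.9 normalized counts in the P5 libraries and at 289, 278, 280 and 223 in the P12 libraries. The ages did not overlap, the lowest value of each age was in P5 library 5 and P12 library 4, and the log2 fold change was 1.90 ± 0.16 (SE). Hmox1, which breaks down haem, was at 483, 433, 432 and 381 at P5 and at 821, 979, 805 and 735 at P12, again without overlap (0.95 ± 0.10 SE).

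The promoter windows of the genes were searched for the letters of 1 form of the element. Windows of 300 bases, from 250 before to 50 after an annotated start (RefSeq, GRCm38.p6), were matched for 34 of the 40 genes, all but Hmox1, Gclc, Gsr, Prdx6, Sod3 and Gsta4. The core of the antioxidant response element, TGACNNNGC on either strand, was in a window of 9 of these 34 genes, or 26.5%, and in a window of 14% of all 27025 genes with one. Among the 9, 5 genes were higher at P12 (Nfe2l2, Prdx1, Srxn1, Sod1 and Mgst1), 3 were lower (Gclm, Txnrd1 and Gstm5) and Mt2 was not tested. Genes that rose and genes that fell thus both carried the core. The windows of 2 genes that rose (Srxn1 and Prdx1) and 2 that fell (Gclm and Txnrd1) are printed 5′ to 3′ on the gene's own strand, with the core in capitals. All 4 lie on the plus strand, at chr2:152105274-152105573, chr4:116685349-116685648, chr3:122245307-122245606 and, for 1 of several Txnrd1 starts, chr10:82858956-82859255. In all 4 the core reads on the reverse strand.
Srxn1: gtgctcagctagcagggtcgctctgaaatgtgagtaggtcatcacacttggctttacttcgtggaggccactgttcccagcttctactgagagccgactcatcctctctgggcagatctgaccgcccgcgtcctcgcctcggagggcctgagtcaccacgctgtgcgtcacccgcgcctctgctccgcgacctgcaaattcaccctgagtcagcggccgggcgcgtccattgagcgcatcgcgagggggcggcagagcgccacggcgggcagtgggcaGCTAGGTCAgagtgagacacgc
Prdx1: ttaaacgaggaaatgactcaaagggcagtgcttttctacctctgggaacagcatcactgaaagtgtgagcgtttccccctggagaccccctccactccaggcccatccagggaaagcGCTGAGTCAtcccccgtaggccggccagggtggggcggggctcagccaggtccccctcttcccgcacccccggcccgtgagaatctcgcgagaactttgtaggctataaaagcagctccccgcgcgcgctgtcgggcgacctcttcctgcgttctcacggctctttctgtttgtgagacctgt
Gclm: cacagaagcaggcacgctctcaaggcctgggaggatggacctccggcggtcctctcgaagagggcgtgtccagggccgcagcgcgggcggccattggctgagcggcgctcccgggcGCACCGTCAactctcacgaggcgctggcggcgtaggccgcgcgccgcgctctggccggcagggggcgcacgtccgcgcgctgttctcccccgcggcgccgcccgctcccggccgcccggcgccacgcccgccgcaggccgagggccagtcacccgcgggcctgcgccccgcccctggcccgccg
Txnrd1: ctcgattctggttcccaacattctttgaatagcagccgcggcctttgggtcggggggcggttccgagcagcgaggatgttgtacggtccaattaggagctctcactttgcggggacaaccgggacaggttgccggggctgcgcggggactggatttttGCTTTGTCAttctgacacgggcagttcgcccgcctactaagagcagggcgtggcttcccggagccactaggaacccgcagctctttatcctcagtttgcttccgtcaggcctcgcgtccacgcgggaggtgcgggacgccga
A match to 6 fixed letters around 3 free ones is a description of the sequence and not evidence of binding. The Nqo1 window had no match, which says only that these letters are not within it. Other forms were not sought, such as TGAGTCAGC, with G in place of the C, which stands in the Srxn1 and Gstp1 windows.

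Genes of glutathione synthesis changed unevenly, with the modifier and catalytic subunits of the same enzyme apart. Glutamate-cysteine ligase joins the catalytic subunit GCLC with the modifier GCLM, which makes the enzyme more efficient. Gclm (chromosome 3, 122245557 to 122270732, plus strand) was at 2227, 2191, 2408 and 2066 normalized counts at P5 and at 539, 604, 472 and 572 at P12. Every P12 library was below every P5 library, and Gclm fell by 2.02 on the log2 scale (SE 0.08, adjusted p = 9.1e-09 by edgeR's test), the largest fall among the 39 genes. Gclc was at 585, 502, 523 and 505 at P5 and at 534, 665, 619 and 547 at P12, overlapping and not called (0.16 ± 0.09 SE). Per kilobase, Gclm was at 2.52 ± 0.206 times Gclc at P5 (SD, n = 4) and at 0.558 ± 0.0761 times at P12. The P12 mean was higher for Gclc per kilobase (157 against 86.9) and also in plain normalized counts (591 ± 61.8 against 547 ± 56.7, SD, n = 4). The plain means lay within each other's spread. In plain normalized counts Gclm was still slightly above Gclc in P12 library 1 (539 against 534) and library 4 (572 against 547).

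Gss, the synthetase of the next step, rose from 691 ± 33.7 to 1390 ± 159 normalized counts (SD, n = 4, log2 fold change 1.01 ± 0.09 SE), with no overlap. Gsr, which regenerates glutathione from its oxidized form with NADPH, was the highest of the 4 genes per kilobase at both ages (839 at P5 and 773 at P12). The P5 pools had 2500, 2391, 2327 and 2028 normalized counts of Gsr and the P12 pools 1974, 2190, 2238 and 2109. The ages overlapped, and the log2 fold change of -0.12 ± 0.07 (SE) was not called. It was called lower without P5 library 5 (-0.18) and turned positive under total count scaling (0.25), which moved the median of all genes to 0.38 on the log2 scale. Relative to that median it stayed negative, at -0.13.

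**Figure D2:**
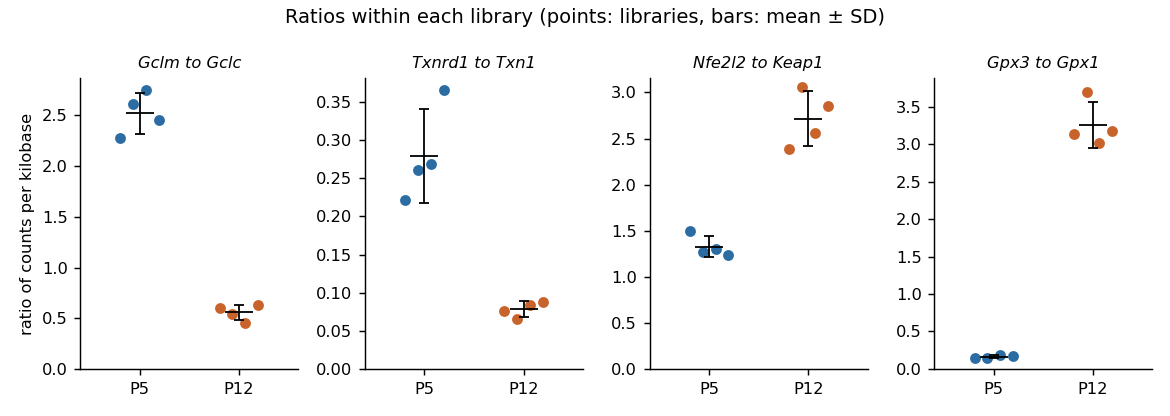
Ratios of normalized counts per kilobase (vertical axes) between pairs of genes within each library, with P5 libraries left and P12 libraries right in each panel and the mean ± SD as bars. The ratio of Gclm to Gclc ranges from 2.28 to 2.75 in P5 libraries and from 0.456 to 0.626 in P12 libraries, and the other 3 pairs also did not overlap between the ages.

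Genes that feed and recycle cysteine and glutathione included large changes in both directions. Of 16 genes listed for this, 6 were higher (37.5%) and 6 lower (37.5%), against 28.8% and 28.4% of all genes tested. Ggt1, a surface enzyme that cleaves extracellular glutathione so that its amino acids can be taken up again, was at 351, 286, 294 and 307 normalized counts at P5 and at 5658, 6247, 5929 and 6372 at P12. Its log2 fold change was 4.29 ± 0.08 (SE, adjusted p = 5.6e-11 by edgeR's test), close in size to that of Gpx3. Its relative Ggt5 had the largest fall of the list, from 641 ± 48.6 to 125 ± 21.6 (SD, n = 4, -2.37). Chac1, which degrades glutathione within the cell, fell by 2.14 and Glrx, a glutaredoxin, fell by 1.94 on the log2 scale, and Cth, which makes cysteine from cystathionine, rose by 1.83 from a low level. Slc7a11, the cystine importer, was not called. It was at 1512, 1191, 1062 and 427 at P5 and at 203, 455, 669 and 2187 at P12, so that P12 library 4 was above every other library and the remaining 3 P12 libraries were at 669 or below. Chac1, Glrx, Cth and Slc7a11 were named after their values were seen.

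Of the 6 glutathione peroxidases 4 were higher (66.7%), against 28.8% of all genes tested, and Gpx3 rose far more than the others. Gpx1 to Gpx4 are selenoproteins, in which a TGA codon is read as selenocysteine at the active site, whereas Gpx7 and Gpx8 have a cysteine codon there. The stretch around that codon is shown because it marks which members are selenoproteins. It is printed 5′ to 3′ for 57 coding bases, with the codon in capitals, from GENCODE M21 transcripts (GRCm38). The codons of Gpx7 and Gpx8 were found by aligning the encoded proteins to that of Gpx3.
Gpx1: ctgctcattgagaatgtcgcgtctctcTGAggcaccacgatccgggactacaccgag
Gpx2: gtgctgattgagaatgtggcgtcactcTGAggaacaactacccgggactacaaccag
Gpx3: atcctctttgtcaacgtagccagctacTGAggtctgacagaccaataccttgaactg
Gpx4: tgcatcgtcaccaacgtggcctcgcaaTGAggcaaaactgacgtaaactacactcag
Gpx7: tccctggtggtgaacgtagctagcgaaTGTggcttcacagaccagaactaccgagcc
Gpx8: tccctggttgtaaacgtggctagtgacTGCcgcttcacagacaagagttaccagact
The TGA is codon 47 of 201 in Gpx1, 40 of 190 in Gpx2, 73 of 226 in Gpx3 and 73 of 197 in the Gpx4 transcript used. The cysteine codon is number 56 in Gpx7 and 79 in Gpx8.

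Gpx3 (chromosome 11, 54902453 to 54910377, plus strand) encodes the secreted peroxidase and had the largest rise of the 39 genes. It had 683, 609, 765 and 556 normalized counts in the P5 pools and 16358, 19083, 14658 and 13893 in the P12 pools. The log2 fold change was 4.62 ± 0.14 (SE, adjusted p = 1.0e-09 by edgeR's test), a mean 24.5 times as high. Per kilobase it went from rank 16 of the 40 genes at P5 (360 ± 50.1 SD) to rank 1 at P12 (8824 ± 1269). The ratio of Gpx3 to Gpx1 per kilobase was 0.165 ± 0.0181 at P5 and 3.26 ± 0.305 at P12 (SD, n = 4).

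Gpx1, the widespread cytosolic form, was the highest of the 40 genes per kilobase at P5 (2190 ± 294 SD). The P5 pools had 3566, 3253, 3243 and 2561 normalized counts of Gpx1 and the P12 pools 4135, 4096, 3869 and 3479. The ages overlapped, since P5 library 1 was above P12 library 4, and the rise was small (log2 fold change 0.30 ± 0.10 SE, adjusted p = 0.021, edgeR). The call was lost without P12 library 1 (0.27) or without P12 library 2 (0.28). Gpx2, a form typical of gut epithelium, rose from 138 ± 27.4 to 389 ± 28.4 (SD, n = 4, 1.49 ± 0.14 SE).

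Gpx4, which reduces lipid peroxides within membranes, was at 2049, 2230, 2216 and 2165 at P5 and at 2298, 2474, 2519 and 2324 at P12. The ages did not overlap, but the log2 fold change was only 0.15 ± 0.06 (SE) and its adjusted p of 0.045 (edgeR) rose to 0.081 without the filter on low counts and to between 0.074 and 0.14 without any one of the 4 P5 libraries, P12 library 2 or P12 library 3. About 34.7% of the 50-base words of Gpx4 also occur in other genes, among them the copy Gpx4-ps2 with 70 to 141 counts. Gpx7 and Gpx8, peroxidases of the endoplasmic reticulum, had log2 fold changes of -0.06 ± 0.14 and 0.04 ± 0.08 (SE) and were not called.

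Among the peroxiredoxins, Prdx1 took the place of Prdx2 as the most abundant per kilobase. Prdx1 was at 2939, 2640, 2706 and 2343 normalized counts at P5 and at 5374, 6176, 5829 and 5589 at P12 (log2 fold change 1.11 ± 0.08 SE). Prdx2, the other typical cytosolic form and one also abundant in red cells, was at 5304, 5070, 5348 and 5078 at P5 and at 3461, 3532, 3648 and 3953 at P12, a fall of 0.51 on the log2 scale (SE 0.06). Neither gene overlapped between the ages. Per kilobase, Prdx2 was at 1705 ± 48.0 and Prdx1 at 873 ± 80.6 at P5, and at P12 Prdx2 was at 1196 ± 71.2 and Prdx1 at 1887 ± 113 (SD, n = 4). The summed level of 7 erythroid markers was 19420 to 38133 at P5 and 18985 to 23457 at P12. Of the 7, 2 were called lower (28.6%, against 28.4% of all genes tested), and none was at 0. The part of red cells in the fall of Prdx2 was not tested. About 11.5% of the exonic bases of Prdx2 are shared with the antisense genes Rnaseh2a and Junb.

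Srxn1, sulfiredoxin, which repairs peroxiredoxins that have been oxidized too far, had the largest change of the group. It was at 302, 278, 305 and 221 at P5 and at 982, 969, 922 and 990 at P12, with little spread among the P12 libraries (1.81 ± 0.10 SE, adjusted p = 5.6e-08 by edgeR's test). Prdx6, which acts with glutathione rather than thioredoxin, rose from 764 ± 50.7 to 1651 ± 202 (SD, n = 4, 1.11). Prdx3 and Prdx5 rose less, by 0.48 and 0.39. Prdx4, the peroxiredoxin of the endoplasmic reticulum, fell from 912 ± 84.1 to 479 ± 56.5 (-0.93 ± 0.10 SE). For Prdx5, 19.1% of its exonic bases are shared with Trmt112.

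In the thioredoxin system, Txn1 and Txnrd1 went in opposite directions. Txn1, cytosolic thioredoxin, was at 1085, 906, 940 and 839 at P5 and at 2046, 2053, 1815 and 1590 at P12 (a log2 fold change just under 1, SE 0.10, a mean 1.99 times as high). Txnrd1, the reductase that keeps it reduced, was at 1628, 1593, 1707 and 2073 at P5 and at 1047, 900, 1033 and 948 at P12, and fell by 0.83 on the log2 scale (SE 0.09, adjusted p = 1.5e-05 by edgeR's test). Both changes were without overlap. The ratio of Txnrd1 to Txn1 per kilobase was 0.280 ± 0.0612 at P5 and 0.0784 ± 0.0103 at P12 (SD, n = 4). The reductases are also selenoproteins, with TGA as the codon before the last, as the coding ends of both show with the codon in capitals.
Txnrd1: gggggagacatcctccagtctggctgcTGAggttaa
Txnrd2: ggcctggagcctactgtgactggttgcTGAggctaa
The mitochondrial pair was not called, with Txn2 at 0.02 ± 0.06 and Txnrd2 at 0.20 ± 0.16 (SE). Txnrd3, a reductase gene of the further lists, rose from 165 ± 9.35 to 276 ± 32.2 normalized counts (SD, n = 4, log2 fold change 0.74).

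Grouped by compartment, a grouping made after the values were seen, the 2 secreted enzymes (Gpx3 and Sod3) both rose. Of 5 mitochondrial ones (Prdx3, Prdx5, Txn2, Txnrd2 and Sod2), 2 rose and 3 were not called, with none above 0.48. Of 3 peroxidases of the endoplasmic reticulum, Prdx4 fell and Gpx7 and Gpx8 were not called. The groups do not cover every gene. Among those left out, the microsomal Mgst1 rose by 1.84, Hmox1 rose by 0.95 and Mgst3 was not called (0.04). Of the 6 selenoproteins, Gpx1 to Gpx4 rose, Txnrd1 fell and Txnrd2 was not called. Over all genes tested, 28.8% were higher and 28.4% lower. The list of genes for selenoprotein synthesis and of other selenoproteins was near these shares, with 5 of 15 higher (33.3%) and 4 lower (26.7%). Its largest rise was in Dio2, a deiodinase that activates thyroid hormone (from 360 ± 49.5 to 3654 ± 1135 normalized counts, SD, n = 4, log2 fold change 3.35), and its largest fall in Selenom (-1.44).

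The superoxide dismutases and catalase changed little, apart from Sod3. Sod3, the extracellular dismutase, was at 28.3, 27.9, 40.9 and 61.4 at P5 and at 162, 185, 135 and 120 at P12, a low level throughout with no overlap (log2 fold change 1.92 ± 0.26 SE). P5 library 5 was the highest P5 library for Sod3 and P12 library 4 the lowest at P12. Sod1, the cytosolic copper and zinc enzyme and the highest of the group per kilobase (425 at P5 and 504 at P12), was at 1782, 1671, 1697 and 1598 at P5 and at 2021, 2114, 1998 and 1876 at P12. It rose by 0.25 ± 0.06 (SE), without overlap. Cat, catalase, was at 859, 812, 734 and 817 at P5 and at 1010, 1013, 919 and 810 at P12, with P12 library 4 within the P5 range. Its log2 fold change was 0.22 ± 0.08 (SE, adjusted p = 0.042, edgeR), and the call was lost, at adjusted p between 0.066 and 0.13, when any library other than P5 library 1 or P12 library 4 was left out. Sod2, the mitochondrial manganese enzyme, was not called (0.05 ± 0.08 SE).

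**Figure D3:**
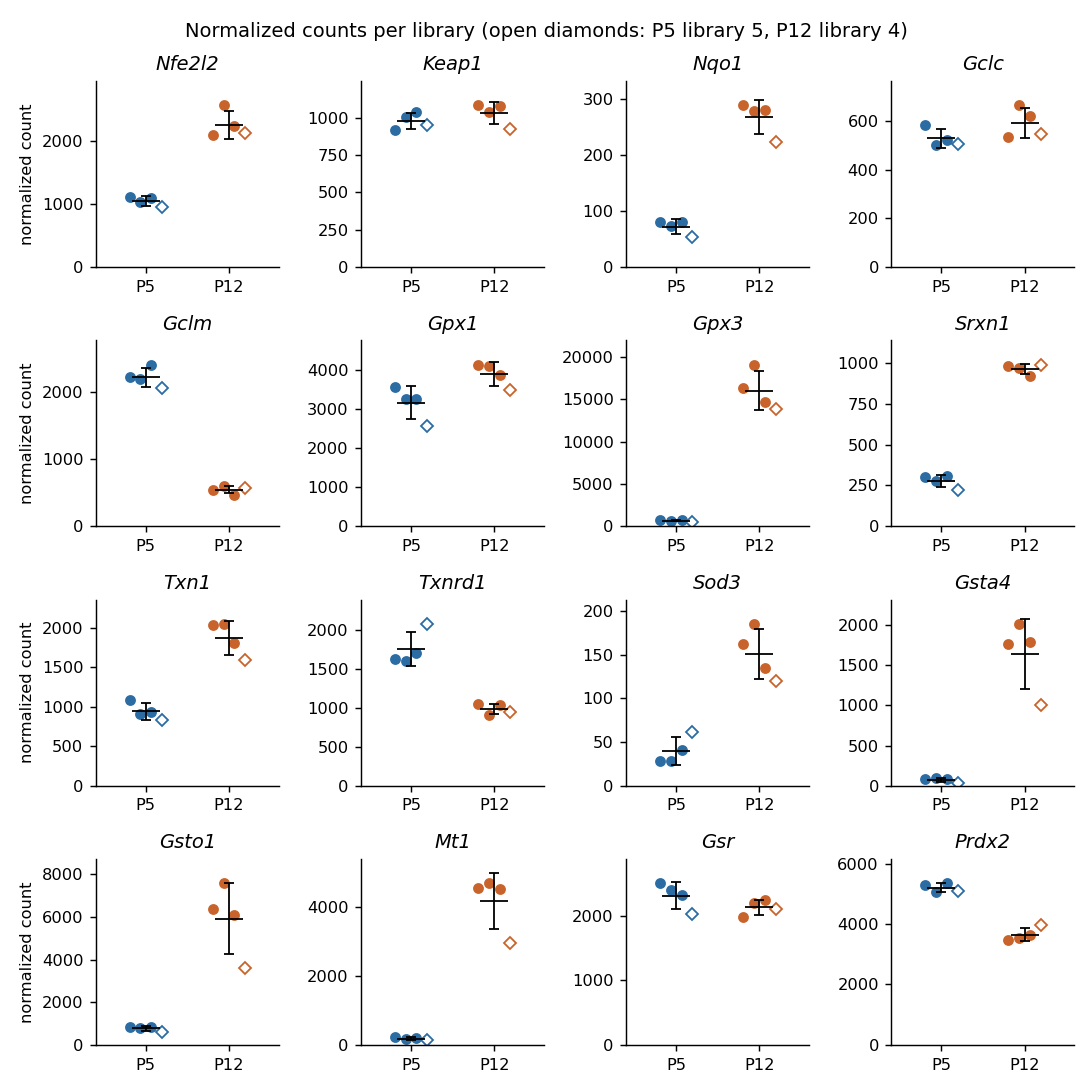
Normalized counts per library (vertical axes, each from 0) of 16 of the genes, with P5 libraries left, P12 libraries right and the mean ± SD as bars. P5 library 5 and P12 library 4 are open diamonds. P12 library 4 was the lowest P12 library for Gsta4, Gsto1, Mt1, Nqo1 and Gpx3, but it was still above every P5 library for each of them.

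The glutathione transferases gave 2 of the 4 largest rises. Of 9 genes, 6 were higher (66.7%), 1 was lower (11.1%) and 2 were not called. Of all genes tested, 28.8% were higher and 28.4% lower. Gsta4, the alpha class form that conjugates the lipid peroxidation product 4-hydroxynonenal, was at 83.6, 91.7, 83.0 and 38.1 normalized counts at P5 and at 1762, 2017, 1786 and 1001 at P12. The log2 fold change was 4.48 ± 0.27 (SE, adjusted p = 1.4e-07 by edgeR's test), a mean 22.4 times as high. Gsto1, the omega class form, was the highest transferase per kilobase at P12 (3005 ± 848 SD), at 861, 798, 828 and 621 at P5 and at 6372, 7583, 6097 and 3606 at P12 (2.93 ± 0.20 SE). Gstp1, the pi class form, was the highest at P5 per kilobase (677 ± 23.7 SD), although Mgst3 (647 ± 16.5) was close to within their spread. It was at 517, 523, 523 and 486 and rose to 917, 957, 787 and 696 (0.71 ± 0.10 SE). About 33.7% of the 50-base words of Gstp1 also occur in other genes, and its neighbour Gstp2 had 3 to 18 counts.

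Mgst1, a microsomal transferase, rose by 1.84 from a low level, and Mgst3, which was higher than Mgst1 per kilobase at both ages, was not called (0.04 ± 0.07 SE). Gstm5, of the mu class, fell from 441 ± 54.5 to 203 ± 33.9 normalized counts (SD, n = 4, -1.12 ± 0.13 SE). Gstm1, also of the mu class, was higher at P12. It was at 123, 120, 161 and 105 at P5 and at 311, 296, 193 and 120 at P12, with overlap (0.87 ± 0.27 SE, adjusted p = 0.017, edgeR). The call was lost without P5 library 5 (0.78), P12 library 1 (0.68) or P12 library 2 (0.73). Gstm2 was not called (0.57 ± 0.23 SE, adjusted p = 0.058, edgeR), but it was called higher by DESeq2 (0.57, adjusted p = 0.048), with no filter on low counts (0.59), and without P12 library 3 (0.69), P12 library 4 (0.69) or both P12 library 4 and P5 library 5 (0.72). Gstt1 was at 27, 38, 36.9 and 13.8 at P5 and at 47.7, 82.7, 64.9 and 42.2 at P12 (1.04 ± 0.33 SE), and its call was lost without P12 library 2 (0.84). Of 17 further transferases and peroxidases 9 could be tested, with 4 higher (44.4%) and 2 lower (22.2%). Among them Gsta3 rose the most (from 7.12 ± 4.81 to 53.4 ± 24.1, SD, n = 4), and Gstm6 fell the most, by 1.06 on the log2 scale. Gsta2 had no count in any P5 library, where 3 counts set the floor of detection, and 7 to 24 counts at P12, too few to be tested.

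Mt1 rose nearly as far as Gpx3. Metallothioneins are small proteins rich in cysteine that bind zinc and copper and can also quench oxidants. Mt1 (chromosome 8, 94179082 to 94180327, plus strand) was at 225, 173, 214 and 130 normalized counts at P5 and at 4560, 4699, 4524 and 2972 at P12. The log2 fold change was 4.51 ± 0.19 (SE, adjusted p = 1.2e-08 by edgeR's test). Per kilobase of the deposited gene length, Mt1 stood second to Gpx3 at P12 (3362 ± 654 SD). That length, 1246 bases, is the whole span of the gene, so any introns count in it. The level of Mt1 per kilobase may therefore be too low. Mt2, a close neighbour on the same strand, was at 3.86, 1.12, 3.95 and 0 at P5 and at 13.2, 27.8, 29.7 and 7.03 at P12. Its libraries did not overlap between the ages either, but it was not tested. Of the exonic bases of Mt2, 73.5% are shared with the antisense gene Gm45774, which had no count at P5 and 2 to 13 at P12. Without strand, reads in the shared part cannot be told apart, and if the counting dropped them the values of Mt2 are too low. Its level and its rank among the 40 genes are therefore uncertain.

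Metallothionein genes are switched on through metal response elements bound by MTF1. The core of that element, TGCACNC or TGCGCNC on either strand, occurred 3 times in the Mt1 window and 4 times in the Mt2 window, and 1.97% of all 32851 windows held 3 or more matches, the Gclm window among them. The Mt1 window (chr8:94178839-94179138, plus strand, GRCm38.p6) is printed with the cores in capitals.
Mt1: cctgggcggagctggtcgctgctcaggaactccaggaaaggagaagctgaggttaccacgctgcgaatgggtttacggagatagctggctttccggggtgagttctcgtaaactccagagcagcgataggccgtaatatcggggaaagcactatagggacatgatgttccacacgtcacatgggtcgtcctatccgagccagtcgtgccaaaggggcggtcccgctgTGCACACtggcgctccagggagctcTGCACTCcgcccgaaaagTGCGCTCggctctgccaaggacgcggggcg
The matches begin 23 bases before the annotated start and at bases 3 and 21 of the transcript. Mtf1 itself was not called (0.09 ± 0.10 SE). Of the 6 genes listed for copper and zinc handling, 2 were higher (33.3%) and 1 lower (16.7%), against 28.8% and 28.4% of all genes tested. Slc30a1, a zinc exporter that is also an MTF1 target, fell from 981 ± 61.9 to 674 ± 41.6 (SD, n = 4, -0.54). The copper chaperone Atox1 rose by 0.25, and Mt4 had the largest rise (2.94 ± 0.59 SE). Mt4, a metallothionein of stratified squamous epithelia, was at 23.1, 15.7, 19.8 and 15.9 at P5 and at 154, 224, 170 and 19.1 at P12, so that P12 library 4 lay within the P5 range.

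**Figure D4:**
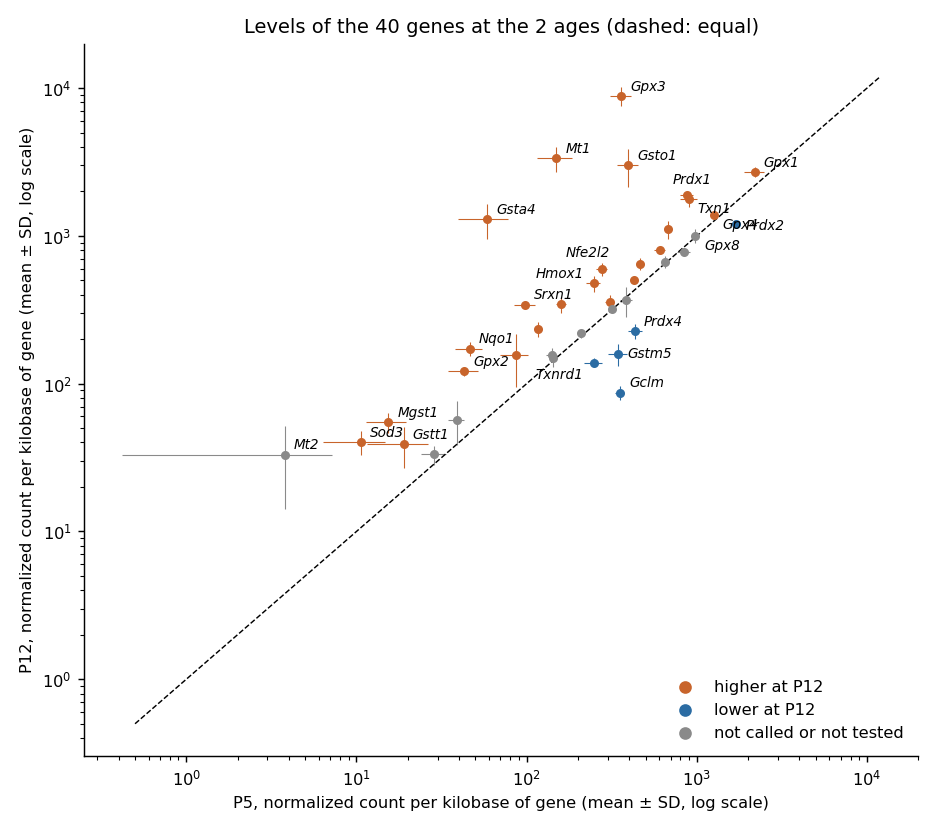
Mean normalized count per kilobase of gene at P5 (horizontal axis) and P12 (vertical axis) for the 40 genes, both on log scales, with SD over 4 libraries as bars and a dashed line of equal levels. Gpx3, Mt1, Gsto1 and Gsta4 lie far above the line, and Gclm lies farthest below it.

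By level, the order of the 40 genes was rearranged at the top. Levels per kilobase use the deposited gene length. For Mt1, Gpx1 and Gpx2 that length is the whole span of the gene, any introns included. Their levels per kilobase may be too low, and the order per kilobase is approximate. Per kilobase, the 5 highest at P5 were Gpx1, Prdx2, Gpx4, Gpx8 and Txn1, and the 5 highest at P12 were Gpx3, Mt1, Gsto1, Gpx1 and Prdx1. Without division by length the top 5 at P5 were Prdx2, Gpx1, Prdx1, Gsr and Gclm, sharing 2 genes with the order per kilobase, while all 5 were shared at P12. At P12, Mt1 and Gsto1 (3362 ± 654 and 3005 ± 848 SD) did not differ by more than their spread, and neither did Prdx1 and Txn1 (1887 ± 113 and 1785 ± 210).

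Genes for the supply of NADPH, which glutathione reductase and thioredoxin reductase use, were mostly higher at P12. Of 9 rows listed for it, 7 were tested and 6 were higher: Idh1, the cytosolic isocitrate dehydrogenase, had the largest rise (1070 ± 71.3 to 4330 ± 328 normalized counts, SD, n = 4, log2 fold change 2.02 ± 0.08 SE), and the pentose phosphate genes G6pdx, Pgd, Tkt and Taldo1 rose by 0.68, 0.61, 0.43 and 0.38. The mitochondrial Idh2 was not called (-0.04). Genes whose products make reactive oxygen rose as well, with 7 of 10 tested higher and none lower. Duox1, an oxidase that releases hydrogen peroxide at the cell surface, rose from 57.6 ± 13.9 to 399 ± 76.1 (2.78 ± 0.19 SE), and Xdh, xanthine dehydrogenase, from 2079 ± 80.8 to 4381 ± 74.1 (1.08). Of 8 genes for repair of oxidized methionine and for stress response, 3 were higher (37.5%) and 2 lower (25%). Msra had the largest rise (0.70) and Oxr1 the largest fall (-0.67). Over the 8 further lists, 82 of 93 rows were tested, 38 were higher (46.3%) and 17 lower (20.7%), against 28.8% and 28.4% of all genes tested. Under total count scaling these counts were 59 and 8, while 54% of all genes tested were higher and 14.2% lower. Nnt stands in the table under 2 identifiers, which were both counted.

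Markers of other cells moved with age too. The counts below stand beside 28.8% higher and 28.4% lower among all genes tested. The summed normalized counts of 7 keratin and envelope genes of oral mucosa were 870 to 1684 at P5 and 53220, 65061, 43679 and 12961 in P12 libraries 1 to 4, with all 7 genes called higher and none at 0. The 5 osteoclast markers summed to 1395 to 2373 at P5 and to 4340 to 10800 at P12, with 4 of 4 tested higher. Of 7 macrophage and leukocyte markers 6 were higher, with sums of 1699 to 2340 and 2453 to 3280, and all 5 endothelial markers were higher, with sums of 2278 to 2721 and 4397 to 4687. Of 5 mesenchyme markers 2 were higher, Col3a1 (3.64) and Lum (1.54), and 2 lower, although their sum, which Col1a1 and Col1a2 make up for the most part, was 879587 to 1061044 at P5 and 733992 to 982921 at P12. Of 4 Schwann cell markers 3 were higher, with sums of 500 to 732 and 971 to 1392, and 4 of 4 tested skeletal muscle markers were lower, with sums of 528 to 978 and 236 to 318 and with Myh3 at 0 in 3 P12 libraries. Of 5 odontoblast and bone markers 1 was higher and 1 lower. All 5 maturation ameloblast markers rose (12880 to 44228 at P5, 356963 to 482565 at P12) and all 4 secretory ones fell. The part of these cell types in the rises of the antioxidant genes was not tested.

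P12 library 4 and P5 library 5 stood apart. P12 library 4 was at 0.24 times the mean of the other P12 libraries for the mucosa markers, 0.49 times for the osteoclast markers and 1.99 times for the secretory ameloblast markers. It was the lowest P12 library for 17 of the 24 higher antioxidant genes (70.8%), and for 44.3% of all genes called higher. It was at 0.45 times the others for Gstm1, 0.54 for Gsta4 and Gsto1 and 0.65 for Mt1 and Gstt1, but at 1.03 for Srxn1 and 1.09 for Gpx2. P5 library 5 was at 0.33 times the other P5 libraries for the maturation ameloblast markers and 0.58 times for the mucosa markers, and it was the lowest P5 library for 17 of the 24 genes (70.8%) against 37.4% of all genes called higher. Without both libraries 26 genes were higher and 6 lower, and the log2 fold changes of Gpx3, Mt1, Gsta4 and Nqo1 were 4.61, 4.50, 4.42 and 1.85, as large as with them to within 0.1.

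**Figure D5:**
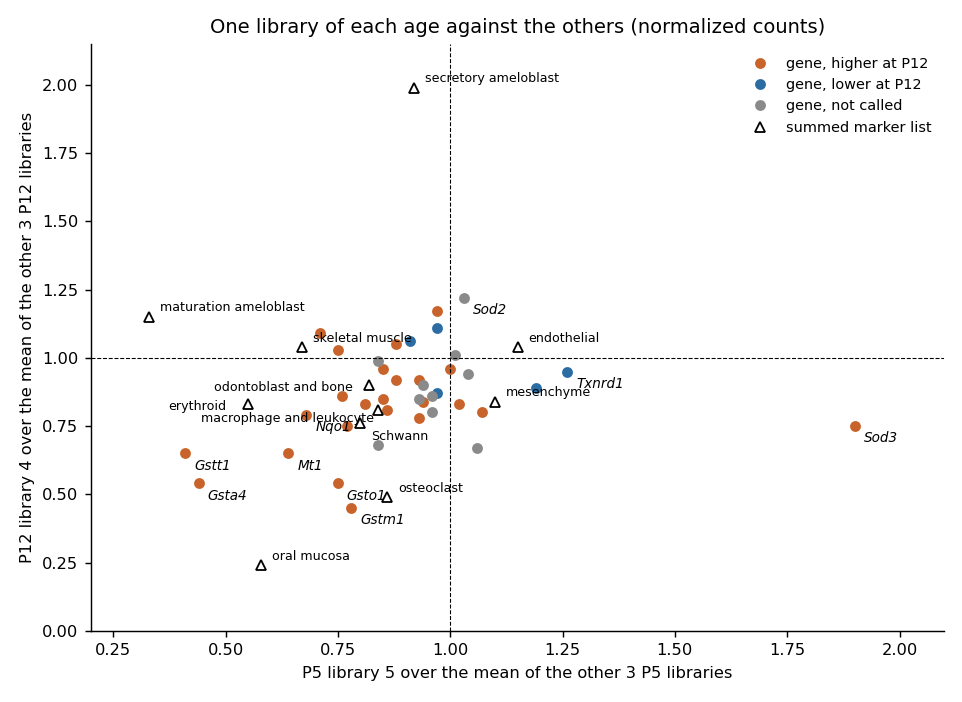
For each of the 39 tested genes (points) and each summed marker list (triangles), the normalized count of P5 library 5 over the mean of the other 3 P5 libraries (horizontal axis) and that of P12 library 4 over the mean of the other 3 P12 libraries (vertical axis). Gsta4, Gstt1 and Mt1 are below 0.7 on both axes, as are no genes that were lower at P12.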

How the data were processed

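Enamel organs of first molars were pooled from 5 pups per library, RNA was captured by its poly(A) tail, and 4 libraries per age were sequenced. The authors deposited whole-number read counts per gene, not normalized. The submitters' processing notes name CASAVA and mm39, but the coordinates match GRCm38: 53499 of 54532 deposited identifiers, and 39 of the 40 genes (not Gstp1), have the same coordinates in GENCODE M21. The aligner, the counter and its use of strand are not given in the sources used here, and reads of overlapping genes or near copies may be split.

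Columns were matched to libraries by title. Counts were tested in R 4.3.3 by the quasi-likelihood functions of edgeR 4.0.16, after its filterByExpr and TMM steps, with age as the sole term, with Benjamini-Hochberg adjustment over 16440 genes at 0.05. The test was tried on simulated data first. Standard errors are the log2 fold change over the root of the F statistic. A two-sided exact permutation test on log2(normalized count + 1) over the 70 splits of 8 libraries gave its smallest p, 0.0286, for 26 of the 39 tested genes. No pair of libraries within an age agreed to within sampling noise. The floor of detection was put at 3 counts per library (0.136 to 0.181 CPM), for counting error only, since reads carried no molecular identifiers.

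The 40 genes, the further lists and the markers were chosen with earlier results of these data known. Per-library values are given for Nfe2l2 and Keap1, for the gene of each role that changed most among those called or was highest per kilobase, and for genes whose call an alternative ended. Of each further list the called genes with the largest rise and fall are named, and other genes of those lists were named after their values were seen. Alternatives were DESeq2 1.42.0 (the tool of the study's methods), limma-voom (limma 3.58.1), other scalings, other filters and thresholds, libraries left out, and the replicate number as a block.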

Additional observations from a re-analysis of the deposited data

Results flagged for a closer look

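In 3 of 78 gene and age groups of 4 libraries, 1 library lay farther from the rest than Dixon's test allows at 95%, where chance alone would give about 3.9. Nqo1 at P12 was at 223 normalized counts in library 4, while the other 3 libraries were at 278 to 289. Mt1 at P12 was at 2972 in the same library, while the others were at 4524 to 4699. Gsta4 at P5 was at 38.1 in library 5, while the others were at 83.0 to 91.7. The 2 P12 values are from the library in which the mucosa markers were lowest. So were its mesenchyme, odontoblast and bone, erythroid, macrophage and leukocyte, osteoclast and Schwann cell sums. The P5 value is from the library in which the maturation ameloblast markers were lowest. Its sums for secretory ameloblast, mucosa, odontoblast and bone, erythroid, macrophage and leukocyte, skeletal muscle and Schwann cell markers were also the lowest at P5. The part of any cell type in the flagged values was not tested.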

How the results depend on the processing

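The counts of 24 genes higher and 5 lower stayed within 1.5 times under DESeq2 (25 and 5), limma-voom (24 and 5), total count scaling (33 and 5, where 54% of all genes were higher and 14.2% lower), no filter (25 and 5) and an adjusted p under 0.01 (19 and 5). Leaving out 1 library gave 19 to 26 higher and 5 to 6 lower, and for the further lists 37 to 41 higher and 15 to 21 lower. When a log2 fold change of 1 or more in size was also required, 14 of the 40 genes were higher and 2 lower, and of the further genes 12 were higher and 5 lower, since the threshold is stricter. Total count scaling gave 59 further genes higher and 8 lower, against 38 and 17, as it moved the median of all genes to 0.38. It also turned Gsr to 0.25, called higher (adjusted p = 0.0088, edgeR), and brought 8 more uncalled genes past the threshold (Gclc, Gpx8, Gstm2, Keap1, Mgst3, Sod2, Txn2 and Txnrd2), whose values relative to that median were within 0.01 of those under TMM.

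Of the 29 called genes, 23 kept their direction and call under each of 19 alternatives, the 5 lower ones among them. The other 6 (Gpx1, Gpx4, Sod1, Cat, Gstm1 and Gstt1) kept their direction. The replicate numbers 1, 3 and 4 occur at both ages. The deviations of same-numbered libraries correlated at 0.043, 0.003 and -0.036, within the range of differently numbered ones (-0.07 to 0.064). The labels do not say whether same-numbered libraries were prepared together, and this was not tested. With the replicate number as a block over those 6 libraries 18 genes were higher and 5 lower, and without the block over the same libraries 19 and 6. Fewer libraries are in both fits. Sod1 was called higher without the block (0.19, adjusted p = 0.033 in edgeR) and not with it (0.19, adjusted p = 0.069), and Gsr was called lower without the block (-0.19, adjusted p = 0.049) and not with it (-0.19, adjusted p = 0.093). For genes with few counts, such as Sod3 at P5 and Gstt1, depth limits precision.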
